A study of Homo sapiens with 6 samples.

Results

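Golph3, the target of a knockdown, was examined together with its paralog Golph3l. The members are the 2 of 34866 rows of the count table whose mouse Ensembl gene identifiers (IDs) are ENSMUSG00000022200.8 (Golph3) and ENSMUSG00000046519.15 (Golph3l). They were taken by ID and not by a cut on their values, though with earlier results of these data known. The samples are labelled as MKN45, a human gastric adenocarcinoma line that the study describes as negative for the gland mucin MUC6, grown in RPMI1640 with serum. All 6 samples received an adenovirus: in 3 it carried a control short hairpin RNA (shRNA), and in 3 an shRNA directed at GOLPH3. An shRNA is processed in the cell to a short guide RNA that directs the cleavage or repression of transcripts it pairs with. The hairpin sequences and their number, the virus dose and the time after infection were not stated in the labels used. The sample titles number the GOLPH3 shRNA samples 1 to 3, and this may mean replicates of the same hairpin or different hairpins. Nothing in the labels says whether replicates 1 to 3 were separate cultures, so the p-values cover only the spread among the samples at hand, and this may be technical.

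The table assigns reads to mouse gene IDs, on genome build mm10 per the submitters' processing notes, whereas the labels give the cells as human. Which species the reads came from was not settled here, and a level is that of reads assigned to the mouse gene model. The names Golph3 and Golph3l came with the choice of the 2 IDs, since the table itself carries no symbols and the name tables used here are human. For the same reason the epithelial markers that would check the cell type, and the other genes of the pathway, were not analysed here. The libraries held 4977645 to 5676169 estimated counts with GOLPH3 shRNA and 6287037 to 7355140 in the controls, so depth differed between the groups without overlap.

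GOLPH3 is a peripheral membrane protein of the trans-Golgi. It binds phosphatidylinositol 4-phosphate (PI4P), the lipid that marks these membranes, and links them through the unconventional myosin MYO18A to actin. It also binds the cytoplasmic tails of a set of glycosyltransferases together with the COPI coat, which returns these enzymes to earlier cisternae and so keeps them in the Golgi. GOLPH3 lies in a region amplified in several solid tumours and has been described as an oncogene. GOLPH3L shares the PI4P-binding fold and has been described both as another adaptor for glycosyltransferases and as lacking the link to MYO18A.

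To show how far the paralogs share sequence that a read or a guide RNA could match, the human coding sequences of GENCODE release 29 (GRCh38) were compared. Human GOLPH3 (ENSG00000113384.13) lies on the minus strand of chromosome 5, from 32124704 to 32174350. Its coding transcript has 4 exons and a coding length of 894 bases before the stop codon, or 298 residues. Human GOLPH3L (ENSG00000143457.10) lies on the minus strand of chromosome 1, from 150646225 to 150697144. The longest of its coding regions spans 855 bases, or 285 residues, in a transcript of 5 exons. In a global alignment 560 of 851 aligned coding bases were identical (65.8%). The longest run of bases shared without a mismatch was 15, and there were 2 such runs. Over the whole of these 2 transcripts, untranslated parts included, the longest was also 15. No run (0) reached 19 bases, the length set here for a hairpin. One of the shared runs lies at matching places of the 2 proteins, near the end of each coding region in the last exon. It stands in capitals below within its coding context, with GOLPH3 at chr5:32126227-32126331 and GOLPH3L at chr1:150648339-150648443, both on the minus strand and written 5′ to 3′.
GOLPH3: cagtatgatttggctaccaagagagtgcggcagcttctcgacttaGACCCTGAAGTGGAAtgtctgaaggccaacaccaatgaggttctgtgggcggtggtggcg
GOLPH3L: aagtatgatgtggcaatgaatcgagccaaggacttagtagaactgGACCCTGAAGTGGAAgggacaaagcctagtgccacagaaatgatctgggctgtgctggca
The letters around the run differ at many places between the paralogs. The human sequences stand here for the labelled cells. No mouse sequence was compared, partial matches to a guide were not searched, and a shared run is a description only.

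Golph3 was lower in every library that received the GOLPH3 shRNA, at 53.5% of the control level (95% interval 48.2% to 59.3%). The estimated counts were 1293, 1559 and 1336 in control replicates 1, 2 and 3, and 550, 631 and 605 in GOLPH3 shRNA replicates 1, 2 and 3. As CPM, the counts after each library is brought to the same total with trimmed-mean factors, the level was 201, 213 and 211 CPM in the controls. With GOLPH3 shRNA it was 112, 113 and 109 CPM. The groups lay far apart and each was tight: every GOLPH3 shRNA library had between 51.4% and 56.1% of the level of any control library, over the 9 possible pairs. The control mean was 208 ± 6.02 CPM and the GOLPH3 shRNA mean 111 ± 1.84 CPM (SD, n = 3). The log2 fold change of Golph3 was -0.90 (SE 0.070, edgeR quasi-likelihood test with Benjamini-Hochberg adjustment over 11400 tested IDs, adjusted p = 1.82e-07). An exact two-sided permutation test of the 6 CPM values gave p = 0.1, the smallest that 3 against 3 allows. The reads assigned to the Golph3 model thus fell by 46.5%, with at least 550 counts left in each library. In bulk RNA, fewer cells that carry the transcript and less of it per cell cannot be told apart, so a fall in some cells and a smaller fall in all cells would look alike.

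**Figure D1:**
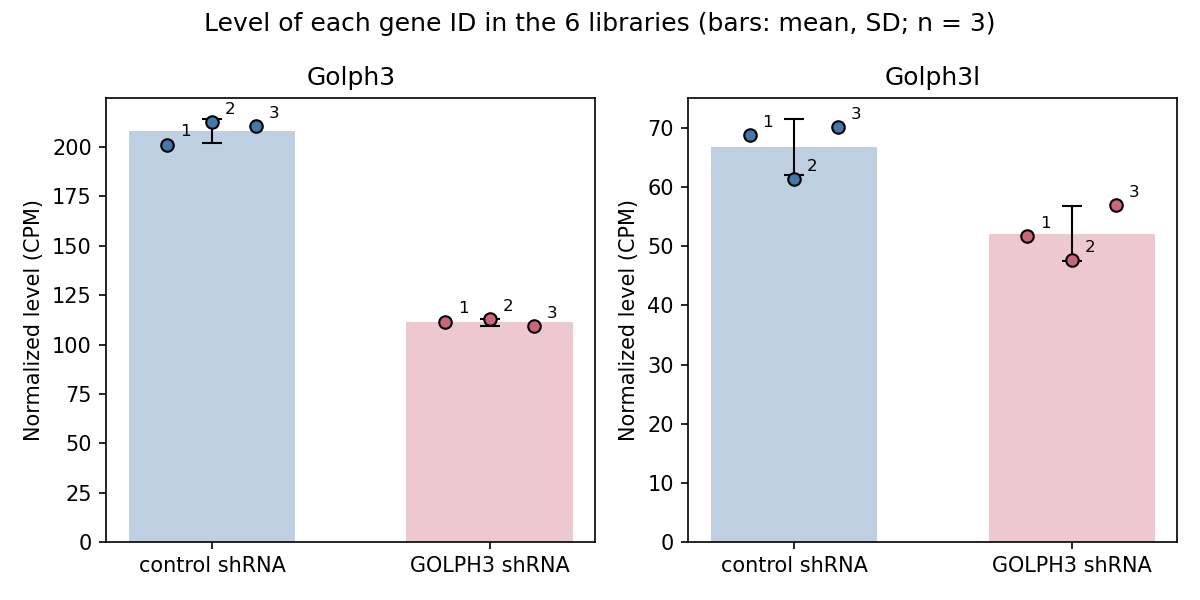
Normalized level in CPM of Golph3 (left) and Golph3l (right) in each library, with bars for the group mean, error bars for the SD (n = 3) and points numbered by replicate. Golph3 stands at 109 to 113 CPM with GOLPH3 shRNA against 201 to 213 CPM in the controls, and Golph3l at 47.6 to 56.9 CPM against 61.4 to 70.1 CPM.

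Golph3l, which the labels do not name as a target of the shRNA, was also lower, by less. Its estimated counts were 442, 450 and 445 in control replicates 1, 2 and 3, and 255, 266 and 315 in GOLPH3 shRNA replicates 1, 2 and 3. In CPM this was 68.8, 61.4 and 70.1 in the controls and 51.7, 47.6 and 56.9 with GOLPH3 shRNA. The groups did not overlap, but the lowest control (replicate 2) and the highest GOLPH3 shRNA library (replicate 3) were close, the latter having 92.8% of the level of the former. The lowest of the 9 pairs gave 67.9%. The control mean was 66.8 ± 4.73 CPM and the GOLPH3 shRNA mean 52.1 ± 4.66 CPM (SD, n = 3), which left 78.1% of the control level (95% interval 67.1% to 90.9%). The log2 fold change of Golph3l was -0.36 (SE 0.10, edgeR adjusted p = 0.014). The exact permutation p of its CPM values was again 0.1, the smallest possible. This call was lost in 2 of the 6 fits that left out 1 library: without control replicate 3 the log2 fold change was -0.33 (edgeR adjusted p = 0.0501), and without GOLPH3 shRNA replicate 2 it was -0.30 (edgeR adjusted p = 0.0572). Golph3 was called in all 6 of those fits.

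Both members were called lower, against a background in which 17.8% of the 11400 tested IDs were called lower, 16.1% were called higher and 33.9% were called in either direction. For 24.2% of tested IDs the 3 GOLPH3 shRNA values lay wholly below the 3 control values, as they did for both members. With so many IDs changed, a call for a single gene such as Golph3l does not set it apart from the rest. The 2 members held different places in this background. Only 549 tested IDs (4.82%) had a lower log2 fold change than Golph3, and 447 of these were called. They amount to 22.0% of all IDs called lower, so the targeted gene was among the larger decreases without being the largest. By p-value Golph3 ranked 47 among all tested IDs. Golph3l was among the smaller of the called decreases: 2602 tested IDs (22.8%) had a lower log2 fold change, and the 1681 of these that were called amount to 82.8% of all IDs called lower. Its p-value ranked 2735. The median log2 fold change over all tested IDs was 0.0019.

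**Figure D2:**
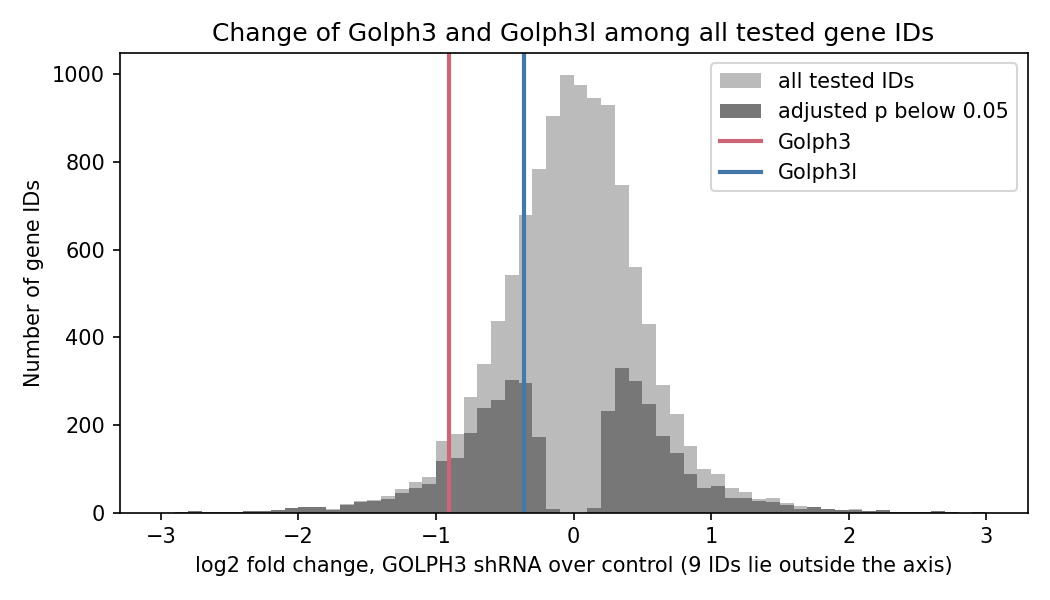
Number of tested gene IDs by log2 fold change (GOLPH3 shRNA over control, bins of 0.1), with all 11400 IDs in light grey and those with an edgeR adjusted p below 0.05 in dark grey. The line for Golph3 (-0.90) stands in the falling tail, and that for Golph3l (-0.36) stands within the bulk of the falling IDs; 9 IDs lie outside the axis.

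Golph3 was lower relative to Golph3l in all 3 GOLPH3 shRNA libraries than in every control. The ratio of Golph3 to Golph3l counts within a library is free of library size and scaling, and gene length cancels when groups are compared. It was 2.93, 3.46 and 3.002 in control replicates 1, 2 and 3. With GOLPH3 shRNA it was 2.16, 2.37 and 1.92, below every control. As these counts are not per length, the ratio is not that of the transcripts themselves, and only its change between groups is read. The mean log2 ratio of the controls was 1.64 (SD 0.13, n = 3) and that of the GOLPH3 shRNA libraries 1.10 (SD 0.15, n = 3), a difference of -0.54. The ratio with GOLPH3 shRNA was thus 68.6% of that in the controls. The groups did not overlap, but how many other IDs would give such a ratio to Golph3 was not computed. Only 4.82% of tested IDs had a lower log2 fold change than Golph3, so its ratio to most other IDs would be lower too. An exact two-sided permutation test gave p = 0.1, which is as low as this design can go, so it cannot pass 0.05. The 95% intervals of the levels that remained, 48.2% to 59.3% for Golph3 and 67.1% to 90.9% for Golph3l, did not overlap. They come from 1 fit of the same libraries and are not a separate test of the difference. Leaving out any 1 library kept the difference between -0.62 and -0.47.

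**Figure D3:**
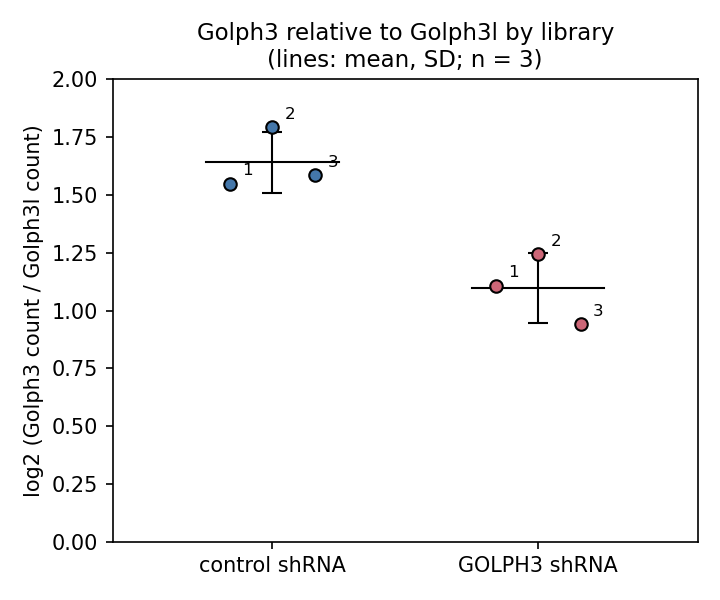
Log2 ratio of the Golph3 count to the Golph3l count in each library, with lines for the mean and SD (n = 3) and points numbered by replicate. The GOLPH3 shRNA libraries lie at 0.94 to 1.24 and the controls at 1.55 to 1.79.

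The summed level of the pair was lower as well. Golph3 and Golph3l together gave 270, 274 and 281 CPM in control replicates 1, 2 and 3, and 163, 161 and 166 CPM in GOLPH3 shRNA replicates 1, 2 and 3. The mean was 275 ± 5.36 CPM in the controls and 163 ± 2.83 CPM with GOLPH3 shRNA (SD, n = 3), or 59.4% of the control level (p = 0.1 by exact permutation). Since CPM is not per length, the longer gene model can weigh more in this sum. The paralog did not rise: the upper bound of the 95% interval for Golph3l was 90.9% of control.

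The depth at which each gene was read limits its precision, alongside the spread between libraries. For Golph3, counting error alone gives a coefficient of variation of 2.53% to 2.78% in a control library, and the 3 controls varied by 2.89%. With GOLPH3 shRNA counting error was 3.98% to 4.26%, and the libraries varied by 1.65%. For Golph3l, which had the fewer counts of the pair, counting error was 4.71% to 4.76% in the controls, which varied by 7.08%. With GOLPH3 shRNA it was 5.63% to 6.26%, and the libraries varied by 8.95%. The spread of Golph3 was thus close to counting error in the controls and below it with GOLPH3 shRNA, and that of Golph3l was above it in both groups. Averaged over tested IDs, replicates did differ beyond counting error (chi-square per degree of freedom of 3.29 to 6.52 in the 6 within-group pairs). This average used library totals without the trimmed-mean factors, and abundant IDs can weigh more in it. It therefore does not show that most IDs exceeded counting error. All 6 libraries were kept as separate. The comparison is with counting error only, so it does not settle whether the replicates were separate cultures. All libraries were also thinned to the smallest total, which removes the depth gap between the groups. Golph3 then had a log2 fold change of -0.91 (edgeR adjusted p = 1.29e-07) and Golph3l one of -0.38 (edgeR adjusted p = 0.0126). The estimates of both genes were whole numbers in all 6 libraries (a tolerance of 0), as they were for 54.9% of tested IDs. Whether reads of 1 paralog were assigned to the other was not tested.

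**Figure D4:**
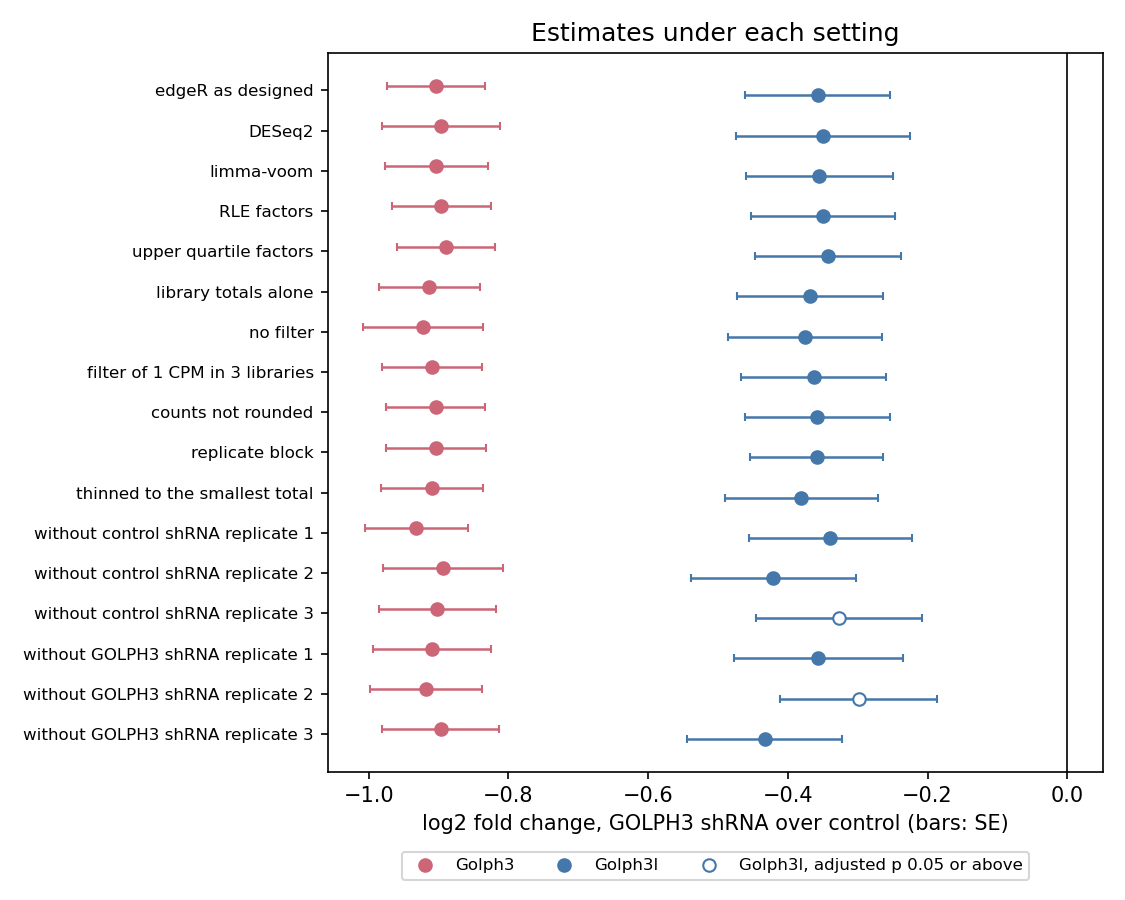
Log2 fold changes of Golph3 and Golph3l with their SE under the designed fit and each alternative; open points have an adjusted p of 0.05 or above. Golph3 stays between -0.93 and -0.89, and Golph3l between -0.43 and -0.30 with 2 open points, both from fits without 1 library.

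The IDs most like Golph3 in their relative change over the 6 libraries were looked up. Likeness was measured as the root mean square difference of log2 CPM over the 6 libraries, after each ID was centred on its own mean, among 9536 other IDs with a mean of at least 5 CPM. The nearest to Golph3 was ENSMUSG00000036959.15, at 0.029 log2 units. It went from 76.2 ± 3.59 CPM in the controls to 41.6 ± 0.52 CPM with GOLPH3 shRNA (SD, n = 3), with fractional estimates in each library. The next was ENSMUSG00000023243.9, at 0.046, which went from 31.4 ± 1.34 to 16.8 ± 0.96 CPM (SD, n = 3). The median ID lay 0.48 from Golph3. Golph3l lay 0.30 from it, and 1576 of 9537 IDs (16.5%) were nearer than the paralog. Seen from Golph3l, the median ID lay at 0.287, nearer than Golph3 at 0.295. The 2 IDs nearest to Golph3l lay at 0.034 and 0.035 from it. Since the groups differ in 33.9% of the tested IDs, a pattern as near as these is a description of 6 libraries and carries no test.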

How the data were processed

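RNA sequencing of 6 samples (3 control shRNA, 3 GOLPH3 shRNA) was analysed. Per the labels' protocols, RNA came from a spin column kit and the mRNA libraries were stranded. The table deposited by the authors holds estimated counts for mouse Ensembl IDs; the build is mm10 per the submitters' processing notes. No aligner, quantifier, annotation release or strand setting is given in the sources used here. Counts were rounded, and 11400 of 34866 IDs passed edgeR's filterByExpr (99.7% to 99.8% of each library's counts). The test was edgeR 4.0.16, run in R 4.3.3 (trimmed mean factors, quasi-likelihood F test, no covariate, Benjamini-Hochberg adjustment over all tested IDs, a call at an adjusted p below 0.05), after the step had been tested on simulated data. SE was taken as the log2 fold change over the square root of F, and 95% intervals from it with a t quantile. Log2 CPM used a prior count of 2, and count ratios a prior count of 0.5. Human transcripts of GENCODE release 29 were compared with Biopython 1.88. Alternatives were DESeq2 1.42.0, limma-voom (limma 3.58.1), other scalings and filters, unrounded counts, the replicate block, each library left out and, added after seeing the data, thinning. The 2 members were named in every library, with the 2 IDs nearest to Golph3; those nearest to Golph3l are given without ID. Members and lists were chosen with earlier results of these data known. Lists named by symbol (PI4P and GOLPH3 partners, COPI and ARF, glycosyltransferases, cell type markers) were not analysed here, as no table used here pairs mouse IDs with symbols.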

Additional observations from a re-analysis of the deposited data

How the results depend on the processing

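Golph3 was called lower in all 16 alternatives, with log2 fold changes from -0.93 to -0.89 (edgeR, DESeq2 or limma-voom adjusted p from 6.70e-25 to 2.06e-05). Golph3l was called lower in 14 of 16. With 1 library left out its log2 fold change ran from -0.43 to -0.30 (edgeR adjusted p from 0.00823 to 0.0572), and it was not called without control replicate 3 (-0.33) or without GOLPH3 shRNA replicate 2 (-0.30), where fewer samples were fitted; under the other 10 alternatives it ran from -0.38 to -0.34. The difference in log2 ratio between the paralogs was negative in its 10 alternatives, from -0.62 to -0.47, none of which can reach an exact p of 0.05. The background held 1425 to 1952 IDs called higher and 1644 to 2222 called lower, and the median over all IDs stayed within 0.0145 log2 units of its value in every alternative. In the fit with a replicate block, Golph3 was at -0.90 (edgeR adjusted p = 2.16e-06), Golph3l at -0.36 (edgeR adjusted p = 0.0107) and the ratio difference at -0.54 (exact permutation p = 0.25, the smallest 3 pairs allow), with 1842 IDs higher and 2045 lower. Same-numbered libraries deviated from their group means with correlations of 0.032, 0.090 and 0.044 across IDs. Between unlike numbers the correlations ran from -0.086 to 0.037. The highest was between control 1 and GOLPH3 shRNA replicate 3, so control 1 did not correlate best with its own number. Deviations within a group sum to 0 and so constrain one another. These correlations therefore cannot decide whether same-numbered libraries were paired. Depth limits Golph3l more than Golph3, with counting error of up to 6.26% against 4.26% in a library.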
